A study of Bos taurus with 14 samples.

Results

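CYP24A1 and SLC34A2 are 2 of the 24616 genes counted in RNA from bovine endometrium, the lining of the uterus. Both were chosen from the study's own list of genes changed by sPIF, so they were selected on the comparison of sPIF with Control in the libraries described here. Explants of intercaruncular endometrium from 7 slaughtered heifers, called cows 1 to 7, were cultured for 30 h. Each cow gave 1 Control explant, kept in medium with the DMSO carrier, and 1 sPIF explant, kept in the same medium with 100 nM sPIF, a synthetic copy of the embryonic peptide preimplantation factor. The 14 libraries were sequenced in 2 lanes, with cows 1 to 4 in lane 1 and cows 5 to 7 in lane 2, and the 6 lane 2 libraries were sequenced in 2 runs whose counts were added. Cows 2 to 5 formed the high and cows 1, 6 and 7 the low serum progesterone group. The uteri were assigned to the stage of a regressing corpus luteum by the form of the ovaries, although the study notes that serum progesterone placed some cows in the luteal phase, and each library is a piece of whole tissue.

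CYP24A1 encodes the mitochondrial hydroxylase that begins the breakdown of calcitriol, the active hormone made from vitamin D, and its transcription is raised by the vitamin D receptor in many tissues. SLC34A2 encodes a cotransporter that carries phosphate together with sodium into epithelial cells across the apical membrane, best known from the small intestine and the lung. Vitamin D signalling and phosphate transport are linked through the hormonal control of mineral balance.

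The Control libraries held between 15885642 and 25771250 counts each and the sPIF libraries between 16377453 and 28625724. CYP24A1 (ENSBTAG00000002765) had between 42 and 389 counts per library, with a median of 158.5. SLC34A2 (ENSBTAG00000001545) had between 191 and 2911 counts, with a median of 1076.5. Both genes reached the minimum of 10 counts in all 14 libraries that was set for testing, as did 13233 genes in all. The counting error of a single CYP24A1 value was therefore between 5.07% and 15.4%, and that of an SLC34A2 value between 1.85% and 7.24%. Levels are given as CPM, TMM-normalised counts scaled to a common library size and not to gene length, so the levels of the 2 genes were not compared with each other.

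CYP24A1 was at 2.33 CPM in the lowest Control explant, 6.18 in the median one and 11.2 in the highest, and at 5.09, 11.5 and 16.1 CPM in the sPIF explants. The ranges of the groups overlapped, with cow 6 lowest among the Control explants and cow 5 lowest among the sPIF explants, while cow 2 and cow 1 were highest. The mean level was 6.67 ± 3.47 CPM in Control and 10.7 ± 4.77 CPM in sPIF explants (SD, n = 7). Within cows the sPIF explant was the higher one in 7 of 7, which held for 1.33% of the genes tested, 176 of 13233. The difference on the log2 CPM scale was 0.67 in cow 1, 0.37 in cow 2, 1.47 in cow 3, 0.75 in cow 4, 0.45 in cow 5, 1.21 in cow 6 and 0.21 in cow 7. Its mean was 0.73 ± 0.46 (SD, n = 7), and cows 3 and 6, whose Control explants were among the 3 lowest, had the 2 largest differences. The gene was selected on these values, so they describe it and were not tested.

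SLC34A2 was at 7.02 CPM in the lowest Control explant, 57.2 in the median one and 95.2 in the highest, and at 39.0, 51.7 and 132 CPM in the sPIF explants. Cow 3 was the lowest and cow 2 the highest in both groups, and the ranges overlapped. The mean level was 46.5 ± 32.4 CPM in Control and 77.8 ± 42.0 CPM in sPIF explants (SD, n = 7). The sPIF explant was higher in 6 of 7 cows. Of the genes tested, 8.64% were higher in at least 6 cows. The log2 difference was 0.92 in cow 1, 0.48 in cow 2, 2.46 in cow 3, 0.79 in cow 4, 1.20 in cow 6 and 1.40 in cow 7. Cow 5 went the other way, with a log2 difference of -0.27, from 57.2 CPM in its Control to 47.3 CPM in its sPIF explant. The mean difference was 1.00 ± 0.84 (SD, n = 7), and without cow 3 it was 0.75 ± 0.60 (SD, n = 6). SLC34A2 was selected on this contrast too, and these values are a description. In pieces of whole tissue, a different share of the cells that express a gene and a different amount of its RNA per cell cannot be told apart.

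**Figure D1:**
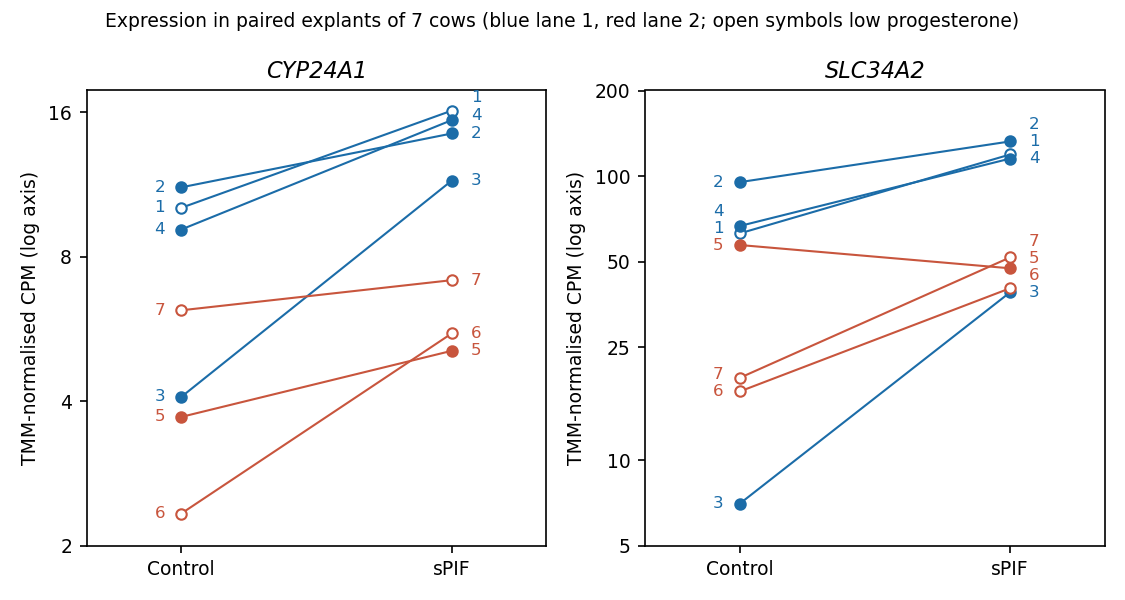
CPM of CYP24A1 and SLC34A2 (log axis) in the Control and sPIF explants of each of 7 cows, with a line joining the explants of a cow and its number beside the points. Blue marks lane 1, red lane 2 and open symbols the low progesterone group. CYP24A1 is higher with sPIF in 7 of 7 cows and SLC34A2 in 6 of 7, with cow 5 lower.

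The depth set how precisely the difference of a single cow was read. The exact 95% counting interval of the log2 ratio ran from 1.16 to 1.84 in cow 3 and from -0.16 to 0.58 in cow 7 for CYP24A1, the gene with fewer counts. For SLC34A2 it ran from 2.24 to 2.71 in cow 3 and from -0.39 to -0.15 in cow 5. These Clopper-Pearson intervals describe the precision of values the genes were selected on and are no test of them. They cover counting error only, and since each cow gave 1 explant per treatment, the variation between explants of 1 treatment within a cow was not measured.

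Most of the variation of both genes lay between cows. Cow accounted for 72.3% of the sum of squares of log2 CPM in CYP24A1 and for 69.5% in SLC34A2, against a median of 75.6% over the genes tested. The remainder after cow and treatment was 7.02% for CYP24A1 and 11.6% for SLC34A2. Between Control explants the SD of log2 CPM was 0.84 for CYP24A1 and 1.36 for SLC34A2, above that of 90.6% and 98.6% of the genes tested. The highest Control explant was 4.78-fold above the lowest for CYP24A1 and 13.5-fold for SLC34A2. Without the cow with the lowest Control explant, cow 6 for CYP24A1 and cow 3 for SLC34A2, the ratios were 3.01 and 5.45, an alternative added after seeing the data. Between all 7 sPIF explants they were 3.16 and 3.40, so the CYP24A1 ratio in Control was above that with sPIF with cow 6 and below it without. The SD of CPM was larger between sPIF than between Control explants in both genes, so which treatment varied more depended on the measure. The biological coefficient of variation estimated by edgeR with cow as a block was 21.8% for CYP24A1 and 32.6% for SLC34A2, against a median of 17.2%.

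Across all genes, edgeR's quasi-likelihood test of sPIF against Control called 0 of 13233 genes at an adjusted p below 0.1, with 1061 genes at an unadjusted p under 0.05. limma-voom called 0 and DESeq2's Wald test 100, of which 22 were higher and 78 lower with sPIF. The tool therefore set how many genes passed. Among the 22 higher genes, the last inside the threshold was C3, complement component 3, with a log2 fold change of 0.56, and the first outside it was ENSBTAG00000008024, with 0.30. The study's list, from which CYP24A1 and SLC34A2 were chosen, was itself made with DESeq2 on paired samples at an adjusted p below 0.1. Of the 102 genes of that list, 97 were tested here. Of these, 21 had a mean log2 difference above 0, from 0.31 to 1.21 with a median of 0.56. SLC34A2 ranked 4 and CYP24A1 ranked 5 of the 21 by mean difference. By the SD of the difference between cows, SLC34A2 ranked 2 and CYP24A1 ranked 7, so SLC34A2 was one of the most uneven of these genes between cows. All 21 were selected on the same contrast. The ranks hold among the genes tested. CRYGS, ENSBTAG00000020564 and ENSBTAG00000000198, which the study lists as higher, missed the count minimum. In the study's list their fold changes were larger than those of SLC34A2 and CYP24A1.

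Lane was not used in choosing the genes and was tested on counts summed over both explants of a cow. In lane 1, CYP24A1 was at 10.1, 11.2, 4.08 and 9.11 CPM in the Control explants of cows 1, 2, 3 and 4, and at 16.1, 14.4, 11.5 and 15.4 CPM in their sPIF explants. In lane 2 it was at 3.71, 2.33 and 6.18 CPM in the Control explants of cows 5, 6 and 7, and at 5.09, 5.53 and 7.14 CPM in their sPIF explants. The sPIF explants of the 2 lanes did not overlap, while in Control the level of cow 3 fell among those of lane 2. CYP24A1 was lower in lane 2, with a log2 fold change of -1.19 (SE 0.28, edgeR adjusted p = 0.0162). Of the genes tested, 39.6% passed in either direction and 20.0% were lower in lane 2, so CYP24A1 was one of many. Among the 13233 genes tested, 2591 were higher in lane 2 at an edgeR adjusted p below 0.1. Of the genes of other cell types described below, named after their values were seen, these included CNN1 and SMTN. The log2 fold changes of CNN1 and SMTN were 1.28 (SE 0.36, edgeR adjusted p = 0.0298) and 0.91 (SE 0.15, edgeR adjusted p = 0.00397). TPM2, at -0.67 (edgeR adjusted p = 0.220), and SELP, at 0.60 (edgeR adjusted p = 0.259), did not pass. CALCRL, calcitonin receptor like receptor, also lower with sPIF on the study's list, was lower in lane 2, at -0.94 (SE 0.11, edgeR adjusted p = 0.00127). Alternatives were not run for these genes, and their part in the lane difference was not tested. The mean log2 CPM of CYP24A1 per cow was 3.44 ± 0.43 (SD, n = 4) in lane 1 and 2.26 ± 0.44 (SD, n = 3) in lane 2. The ranges did not overlap, as for 19.7% of genes in this direction, although cow 3 at 2.80 and cow 7 at 2.75 were close. With the cows divided in each of the 35 possible ways, the exact permutation test, two-sided, gave p = 0.0571, where the smallest possible p is 0.0286. In the Control explants alone, the edgeR log2 fold change was -1.09 with an adjusted p of 0.115, which is above the threshold, while the other alternatives gave an adjusted p between 0.000556 and 0.0589. In the sPIF explants alone, looked at after the lanes were seen to be apart and so not read as a test, the difference was -1.27, and 18.8% of genes were separated in this way.

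SLC34A2 in lane 1 was at 62.8, 95.2, 7.02 and 66.7 CPM in the Control explants of cows 1, 2, 3 and 4, and at 119, 132, 39.0 and 115 CPM in their sPIF explants. In lane 2 it was at 57.2, 17.4 and 19.5 CPM in the Control explants of cows 5, 6 and 7, and at 47.3, 40.3 and 51.7 CPM in their sPIF explants. Cows 1, 2 and 4 were above every lane 2 cow in both treatments, and cow 3 was below every lane 2 cow. The log2 fold change of lane 2 against lane 1 was -1.03 (SE 0.50, edgeR adjusted p = 0.157), which did not pass. Without cow 3 it was -1.36 (SE 0.21, edgeR adjusted p = 0.00588), so the edgeR call depended on cow 3. DESeq2 gave an adjusted p of 0.0674 with all 7 cows. The adjusted p of the other alternatives ran up to 0.441, in the Control explants alone. The exact permutation test gave p = 0.343. Since each cow was in 1 lane, lane and cow cannot be told apart in either gene.

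**Figure D2:**
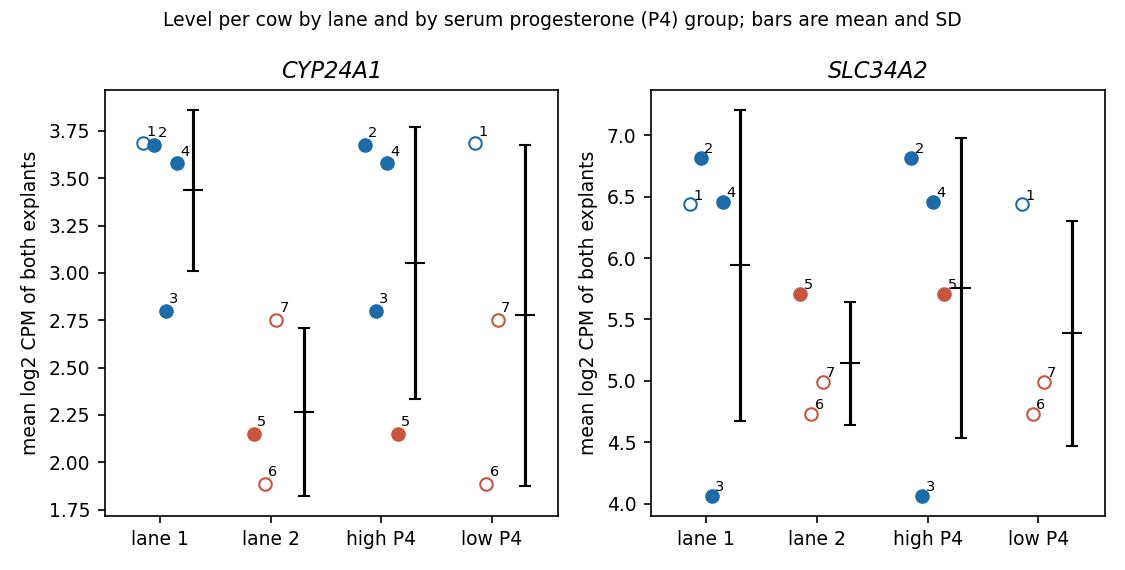
Mean log2 CPM of the Control and sPIF explants of each cow, for CYP24A1 and SLC34A2, by lane and by serum progesterone group, with cow numbers beside the points and the mean ± SD of each group as bars. Blue marks lane 1, red lane 2 and open symbols low progesterone. The CYP24A1 level of the 3 lane 2 cows lies below that of the 4 lane 1 cows, and in SLC34A2 cow 3 lies below the lane 2 cows.

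By lane and treatment, the order of the CYP24A1 level was sPIF in lane 1 at 14.4 ± 2.02 CPM (SD, n = 4), Control in lane 1 at 8.61 ± 3.13 (SD, n = 4), sPIF in lane 2 at 5.92 ± 1.08 (SD, n = 3) and Control in lane 2 at 4.08 ± 1.95 (SD, n = 3). The values of the last 3 of these overlapped with those of their neighbours, and the sPIF explants of lane 1 lay above the others. For SLC34A2 the order of mean CPM was the same, at 101 ± 42.3, 57.9 ± 36.9, 46.4 ± 5.77 and 31.4 ± 22.4 CPM, and all neighbours overlapped. By mean log2 CPM of SLC34A2, sPIF in lane 2, at 5.53 ± 0.18 (SD, n = 3), was above Control in lane 1, at 5.36 ± 1.71 (SD, n = 4). The order of CYP24A1 was the same on both scales. The sPIF explants of lane 2 had the narrowest range of SLC34A2, from 40.3 to 51.7 CPM.

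The within-cow difference is also given by lane. Both genes were selected on these differences, and a choice of that kind favours differences that are alike between cows, so the values by lane and by progesterone group are a description with no test. For CYP24A1 it was 0.82 ± 0.47 (SD, n = 4) in lane 1 and 0.62 ± 0.53 (SD, n = 3) in lane 2. The interaction, lane 2 against lane 1, was -0.20 (SE 0.35). For SLC34A2 it was 1.16 ± 0.88 (SD, n = 4) and 0.78 ± 0.92 (SD, n = 3), with an interaction of -0.35 (SE 0.53). The direction of these differences rested on single cows. The interaction of CYP24A1 turned to 0.0076 without cow 3 and to 0.014 without cow 7, and that of SLC34A2 to 0.042 without cow 3 and to 0.19 without cow 5. Across all genes edgeR called 0 interactions with lane, a background of 0%, with 1516 genes at an unadjusted p under 0.05. limma-voom called 0 and DESeq2 175.

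The progesterone groups, which divide the cows by the hormone in their serum, overlapped in both genes. The mean log2 CPM of CYP24A1 per cow was 3.05 ± 0.72 (SD, n = 4) in high and 2.78 ± 0.90 (SD, n = 3) in low progesterone cows. The log2 fold change was 0.22 (SE 0.48, edgeR adjusted p = 0.910). That of SLC34A2 was 5.76 ± 1.22 (SD, n = 4) and 5.39 ± 0.92 (SD, n = 3), and the log2 fold change was 0.39 (SE 0.59, edgeR adjusted p = 0.878). In both genes cow 1 of the low group was among the 3 highest cows and cow 6 among the 2 lowest, with cow 7 between them. Within lane 1 the low group had 1 cow and within lane 2 the high group had 1 cow, so the lanes were too small for values of their own. With lane as a covariate the log2 fold change was -0.26 for CYP24A1, and without cow 6 it was -0.10, so its direction was not stable. Without cow 1 it was 0.81. For SLC34A2 it was 0.12 with lane as a covariate, 1.06 without cow 1 and 0.060 without cow 2. The exact permutation tests gave p = 0.6 for CYP24A1 and p = 0.629 for SLC34A2. edgeR called 0 genes between the progesterone groups, a background of 0%, with 458 at an unadjusted p under 0.05, limma-voom called 0 and DESeq2 24.

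The response to sPIF by progesterone group was 0.76 ± 0.50 (SD, n = 4) in high and 0.69 ± 0.50 (SD, n = 3) in low progesterone cows for CYP24A1. For SLC34A2 it was 0.86 ± 1.15 (SD, n = 4) and 1.18 ± 0.24 (SD, n = 3). The high group held both the largest SLC34A2 difference, in cow 3, and the only negative one, in cow 5, while the 3 low progesterone cows lay between 0.92 and 1.40. The interactions were 0.08 (SE 0.36) for CYP24A1 and -0.36 (SE 0.54) for SLC34A2. For CYP24A1 the interaction was -0.15 without cow 3 and -0.16 without cow 7. For SLC34A2 it was 0.017 without cow 5 and -0.84 without cow 3. edgeR, limma-voom and DESeq2 called 0 genes in this comparison, with 187 at an unadjusted p under 0.05 in edgeR.

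The levels of both genes in the Control explants were compared across cows to see whether they varied together in culture without sPIF. Pearson's r of log2 CPM was 0.659 (exact permutation p = 0.102, n = 7) and Spearman's rho 0.786 (exact permutation p = 0.0480, n = 7). Without cows 2 and 6, the farthest from the median of CYP24A1, r was 0.531 (exact permutation p = 0.333, n = 5) and rho 0.6 (exact permutation p = 0.35, n = 5). Neither p was below 0.05 without these cows, and that of r was not below it with them. The lanes, with 4 and 3 cows, were too small for a correlation each. After subtracting each lane's mean, an alternative added after seeing the data, r was 0.702 and rho 0.5 over the 7 cows, so r was higher and rho lower than before. The sPIF explants had been planned as an alternative, but they fell into separate ranges of CYP24A1 by lane, so no pooled correlation is given for them. After subtracting lane means their r was 0.729 and rho 0.643. Over the 2 pooled relations computed, that of the sPIF explants included, the Benjamini-Hochberg adjusted exact permutation p in Control was 0.102 for r and 0.0960 for rho, so neither was below 0.05.

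**Figure D3:**
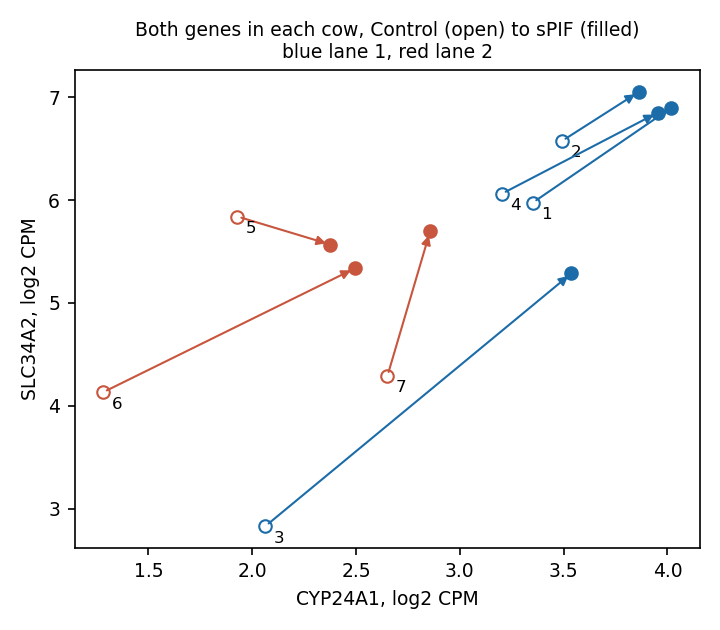
Log2 CPM of SLC34A2 against log2 CPM of CYP24A1 in the 14 libraries, with an arrow from the Control (open) to the sPIF explant (filled) of each cow. Blue marks lane 1 and red lane 2, and numbers mark cows. Cows 1, 2 and 4 lie at the upper right, cow 3 has the longest arrow and the arrow of cow 5 points down.

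Genes with a like pattern were ranked by Pearson's r of log2 CPM over the 14 libraries, which share cows, lanes and treatment, so r is a description. SLC34A2 and CYP24A1 had r = 0.754 with each other, rank 447 of 13232 genes for CYP24A1 and rank 145 for SLC34A2, so many genes followed each of them more closely. The 10 genes most like CYP24A1 had r between 0.906 and 0.95, and 10 of 10 were lower in lane 2 at an edgeR adjusted p below 0.1. They were chosen for following a gene that itself differed by lane, so this count is no separate result. The call of SQLE, one of the 10, was lost without cow 1, 2, 4, 5 or 6, and alternatives of the other 9 were not run. The ranking after subtracting lane means shared 3 of the 10. The 10 most like SLC34A2 had r between 0.869 and 0.932. Their lane log2 fold changes lay between -1.25 and -0.23, and 1 of 10 passed, where 20.0% of all genes tested were called lower in lane 2. The 2 lists shared 0 genes. The closest gene was ENSBTAG00000013111 for CYP24A1, with r = 0.95, and ENSBTAG00000026181 for SLC34A2, with r = 0.932. Of the 20 genes, 1 could be named, SQLE, squalene epoxidase, an enzyme of cholesterol synthesis. SQLE ranked 5 for CYP24A1 with r = 0.928 and was at 102 ± 22.2 CPM in Control and 127 ± 29.1 CPM in sPIF explants (SD, n = 7). Its log2 difference was 0.31 ± 0.15 (SD, n = 7), above 0 in 7 of 7 cows, and SQLE is on the same selected list. Its log2 fold change of lane 2 against lane 1 was -0.445 (SE 0.16, edgeR adjusted p = 0.0738), and between -0.452 and -0.338 where the call was lost.

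Lists of other genes of vitamin D metabolism and signalling, vitamin D receptor targets and calcium transport, phosphate transport, phosphate regulation and mineralisation, and ovarian steroid receptors held 56 genes, and lists of cell type markers held 30. The symbols used here covered 1 of these 86, DHCR7, so the vitamin D receptor, the activating hydroxylases, the other phosphate transporters and the markers of epithelium, stroma, endothelium, smooth muscle and blood cells on these lists were not analysed here. The labelled tissue was for the same reason not checked against markers. Genes known from other cell types were among those lower with sPIF on the study's list, and 4 of them are given here after their values were seen. CNN1, SMTN and TPM2, of the contractile filaments of smooth muscle, had a mean log2 difference of -0.68, -0.44 and -0.42. That of SELP, an adhesion molecule of endothelium and platelets, was -1.85. Over the 14 libraries their r with CYP24A1 ran from -0.852 in SMTN to 0.369 in TPM2, and with SLC34A2 from -0.511 to 0.261. After subtracting lane means, r with CYP24A1 ran from -0.657 in SMTN to 0.053 in TPM2, and that of CNN1 went from -0.619 to -0.193. With SLC34A2 it then ran from -0.470 in SELP to 0.120 in TPM2. Other genes lower with sPIF on the list were left out, and the 4 do not stand for them. One of these, CALCRL, had a mean log2 difference of -0.55. Its r was 0.325 with CYP24A1 and 0.091 with SLC34A2, and -0.508 and -0.287 after subtracting lane means. The lane differences of the 4 genes and of CALCRL are given above with that of CYP24A1. These genes were selected on the same contrast, and their part in the values of CYP24A1 and SLC34A2 was not tested. DHCR7 encodes the reductase that turns 7-dehydrocholesterol, the precursor of vitamin D, into cholesterol. It was at 55.3 ± 19.7 CPM in Control and 77.6 ± 35.4 CPM in sPIF explants (SD, n = 7), with a log2 difference of 0.45 ± 0.23 that was above 0 in 7 of 7 cows, and it was selected on this contrast as well. Its log2 fold change of lane 2 against lane 1 was 0.72 (SE 0.28, edgeR adjusted p = 0.0848), opposite in sign to that of CYP24A1. That call was lost in 10 of 15 alternatives. Without cow 2, 3, 4, 6 or 7 the adjusted p of edgeR lay between 0.115 and 0.300 and the log2 fold change was 0.78, 0.60, 0.65, 0.75 and 0.38. With limma-voom the log2 fold change was 0.67 (adjusted p = 0.112), and with the 2 other filters in edgeR 0.69 (adjusted p = 0.110) and 0.70 (adjusted p = 0.112). In Control explants alone it was 0.47 (edgeR adjusted p = 0.260), and with progesterone as a covariate 0.40 (edgeR adjusted p = 0.267).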

How the data were processed

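RNA of 14 endometrial explants was sequenced from both fragment ends. After trimming with Trimmomatic, the authors mapped the reads with Bowtie 2 (2.2.6) to UMD3.1, the bovine assembly used by Ensembl, and deposited raw counts per gene from featureCounts (1.4.6), per the submitters' processing notes and the study's methods. Bowtie 2 does not align reads across splice junctions, and its effect on these genes was not tested. The row of totals was left out. Lane and progesterone group came from the study's methods and results, and the treatment and the pairing by cow from the labels. Explants of a cow deviated together from their group means, with a correlation across genes between 0.412 and 0.764.

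Genes that reached 10 counts in all 14 libraries entered edgeR 4.0.16 (R 4.3.3) after TMM normalization and were tested by quasi-likelihood with cow as a block, or on counts summed per cow for lane and progesterone, with Benjamini-Hochberg adjustment over all genes tested and a threshold of 0.1. Log2 CPM used a prior count of 2. Alternatives were DESeq2 1.42.0, limma-voom (limma 3.58.1), other normalizations and filters, no block and each cow left out. Exact permutation tests were two-sided (SciPy 1.17.1), with 8 run on the level and the response of CYP24A1 and SLC34A2 and 8 more on the level in the explants of 1 treatment. The p-values of the response are not given, since both genes were selected on it. The scripts were tested on simulated counts.

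The genes and lists were chosen with earlier results of these data known. Symbols came from the study's list of changed genes, where an extra 0 in 27 printed identifiers was removed. No row of the RefSeq gene table carried an Ensembl identifier. Named were CYP24A1 and SLC34A2, list genes that could be matched, and, of the 10 genes with the highest correlation with each, those with a symbol. C3, CNN1, SMTN, TPM2, SELP, CALCRL and the unnamed identifiers were named after their values were seen.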

Additional observations from a re-analysis of the deposited data

Results flagged for a closer look

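In lane 1, SLC34A2 in cow 3 lay far from the other 3 cows in both explants. In the Control explant it was at 2.83 log2 CPM, where cows 1, 2 and 4 were at 5.97, 6.57 and 6.06. In the sPIF explant it was at 5.29 log2 CPM, where they were at 6.90, 7.05 and 6.85. In each case the gap to the nearest cow was a larger part of the whole range than Dixon's 95% limit for 4 samples allows. The Control library of cow 3 had the highest total count of the Control group, 25771250, and the value rests on 191 counts. Of 18 groups of values examined for the 2 genes, 2 passed this limit, and chance flags about 1 in 20. Cow 3 did not pass it over all 7 cows or within the high progesterone group. Why cow 3 stood apart was not tested.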

How the results depend on the processing

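Of 306 alternatives, 269 kept the direction and the side of the threshold, or the value within the spread between cows. The mean sPIF minus Control difference ran from 0.61 to 0.82 for CYP24A1 and from 0.75 to 1.21 for SLC34A2 when each cow was left out, and kept its direction under each normalization, prior count, filter, tool and lane. Without cow as a block the edgeR log2 fold changes were 0.69 (SE 0.37) and 0.74 (SE 0.49), against 0.73 (SE 0.17) and 0.98 (SE 0.26) with it, and the count of genes called was 0 in both, with 200 and 1061 at an unadjusted p under 0.05. The fit without the block was run for sPIF against Control alone. DESeq2 called 100 genes for sPIF, 24 for progesterone and 175 for the interaction with lane, where edgeR called 0. The lane call of CYP24A1 was lost in Control explants alone (-1.09), and its difference was -1.27 in sPIF explants alone, which was looked at after the lanes were seen to be apart. That of SLC34A2 was gained with DESeq2 (-1.03) and without cow 3, with a range of -1.36 to -0.84 over cows left out. The progesterone difference of CYP24A1 reversed with lane as a covariate (-0.26), and ran from -0.10 to 0.81 over cows left out, while that of SLC34A2 ran from 0.060 to 1.06. Over cows left out, the interaction with lane ran from -0.49 to 0.014 for CYP24A1 and from -0.68 to 0.19 for SLC34A2, and that with progesterone from -0.16 to 0.32 and from -0.84 to 0.017. The lane call of DHCR7 (0.72) was lost in 10 of 15 alternatives, with a log2 fold change of 0.47 in Control explants alone, 0.40 with progesterone as a covariate and 0.38 without cow 7. That of SQLE (-0.445) was lost in 5 of 15, with -0.452 to -0.338. The 10 genes most like CYP24A1 shared 5 with the Spearman ranking and 3 with the ranking after subtracting lane means, and those most like SLC34A2 shared 5 and 4. The cause of these changes was not tested. With 1 explant per treatment and cow, and lanes of 4 and 3 cows, the smallest p of an exact test between lanes was 0.0286.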
